A study of Homo sapiens with 14 samples.

Results

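Heavy polysomes were compared with light polysomes in the control cells of the study, MDA-MB-231 carrying a non-silencing short hairpin RNA (shNSi), to describe which mRNAs carry many and which carry few ribosomes while DAP5 is present. DAP5, the product of EIF4G2, is a relative of the scaffold protein eIF4GI that lacks the eIF4E-binding site. MDA-MB-231 is an established human line from a triple-negative breast cancer. Members were the genes with at least 10 counts in 2 or more of 4 libraries, the heavy and light pools of 2 shNSi cultures, which gave 14852 of the 58434 gene symbols in the count table. Of these, 91 passed through the heavy libraries alone and 830 through the light libraries alone, so that a difference in those genes was built into the filter.

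The series holds 14 libraries, from 2 shNSi cultures sampled as total RNA and as light, moderate and heavy polysomes and from 2 shDAP5 cultures sampled as total RNA and as light and heavy polysomes. Both lines carry a stable doxycycline-inducible construct, and both received 1 µg/ml doxycycline for 6 days, so that the controls also met the drug and the hairpin vector. Polysomes were held with cycloheximide and parted on a sucrose gradient, and the study calls light polysomes poorly translated and heavy polysomes well translated. The 4 libraries compared held 25899838 to 30050488 counts. The line was checked against its markers: VIM, CD44, EGFR, AXL and CAV1 lay between 116 and 5449.9 CPM, read counts scaled to a common library size, in the shNSi total RNA libraries. PGR was at 0 counts in all 8 shNSi libraries, CDH1 reached 5 counts, the leukocyte gene PTPRC 2, ESR1 16 and the glial gene GFAP 103. EPCAM, looked for as absent or near 0, reached 169 counts and was at 3.96 to 4.59 CPM in the total RNA libraries. KRT8, a luminal keratin, was at 511 to 584 CPM in the same total RNA libraries.

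A translating mRNA is read by several ribosomes at once, and the sucrose gradient sorts mRNAs by how many they carry. The number depends on how often ribosomes start, how fast they move and how long the coding sequence is, because a short coding sequence has room for few ribosomes even when it is translated actively. The position of an mRNA in the gradient is therefore not a measure of protein made per mRNA. Each library was scaled to its own total, so every difference below is relative to the other mRNAs of the same pool and gives no share of an mRNA's molecules in that pool. In such bulk samples, fewer cells that hold an mRNA and less of it per cell cannot be told apart.

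The shortest coding sequences stood at the light end of the gradient, and 4 of them are printed here because each fits into a few lines while its mRNA was depleted from heavy polysomes. Capitals mark the start and the stop codon, and the sequences and gene positions come from GENCODE v29 (GRCh38), whereas the deposited counts were made on hg19.
RPL41: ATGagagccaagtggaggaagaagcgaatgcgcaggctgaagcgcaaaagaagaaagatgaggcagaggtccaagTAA
OST4: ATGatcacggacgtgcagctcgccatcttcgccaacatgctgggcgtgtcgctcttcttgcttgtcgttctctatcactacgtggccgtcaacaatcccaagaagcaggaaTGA
TMSB10: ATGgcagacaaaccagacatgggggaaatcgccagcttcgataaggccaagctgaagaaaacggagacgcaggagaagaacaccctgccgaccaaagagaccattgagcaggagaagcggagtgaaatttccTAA
RPS29: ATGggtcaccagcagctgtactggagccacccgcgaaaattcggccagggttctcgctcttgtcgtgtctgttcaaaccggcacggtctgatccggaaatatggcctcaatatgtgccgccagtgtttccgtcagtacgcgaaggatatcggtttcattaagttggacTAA
RPL41 (gene at chr12:56116586-56117943, plus strand) encodes a ribosomal protein of the large subunit in 78 nt. OST4 (chr2:27070472-27071773, minus strand) encodes a subunit of the oligosaccharyltransferase in 114 nt. TMSB10 (chr2:84905625-84906675, plus strand) encodes the actin-binding peptide thymosin beta-10 in 135 nt, and RPS29 (chr14:49570984-49599164, minus strand) a small-subunit ribosomal protein in 171 nt.

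RPL41 was at 1497 and 787 CPM in the light and 178 and 223 CPM in the heavy libraries. OST4 was at 269 and 115 CPM in the light and 27.1 and 27.0 CPM in the heavy libraries. TMSB10 was at 4247 and 1197 CPM in the light and 381 and 342 CPM in the heavy libraries. In each of these genes both light libraries lay above both heavy libraries, and the light library of culture 1 was the highest. RPS29 was at 973 and 471 CPM in the light and 67.1 and 83.3 CPM in the heavy libraries, with the same order. The log2 differences of heavy minus light, with standard errors from the fit, were -2.45 ± 0.45 (adjusted p = 2.47e-05) for RPL41, -2.70 ± 0.40 (adjusted p = 1.31e-06) for OST4, -2.64 ± 0.49 (adjusted p = 2.39e-05) for TMSB10 and -3.18 ± 0.46 (adjusted p = 1.07e-06) for RPS29 (edgeR quasi-likelihood test with culture as a term). Every ± value here was derived from the test statistic, whose spread is shared in part across genes. It is not the spread between the 2 cultures of that gene. TMSB4X, which encodes the related thymosin beta-4 in 135 nt, gave -2.41 ± 0.48 (adjusted p = 6.39e-05). MTRNR2L12, with the shortest coding sequence of the table at 75 nt, had no stable value: it was at 2.11 and 9.91 CPM in the light and 23.1 and 7.97 CPM in the heavy libraries, and its sequence is nearly that of mitochondrial ribosomal RNA, so that its reads are uncertain.

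The longest coding sequences stood at the heavy end. MACF1, a cytoskeletal crosslinker with a coding sequence of 22779 nt, was at 84.6 and 28.1 CPM in the light and 312 and 323 CPM in the heavy libraries. SYNE2, a nuclear envelope spectrin-repeat protein (20724 nt), was at 12 and 6.69 CPM in the light and 43.4 and 86.9 CPM in the heavy libraries. In both genes the 2 heavy libraries lay above the 2 light libraries. The log2 difference was 2.70 ± 0.44 (adjusted p = 5.12e-06) for MACF1 and 2.77 ± 0.39 (adjusted p = 9.51e-07) for SYNE2. SYNE1 (26394 nt), AHNAK2 (17388 nt) and the ribosome assembly factor MDN1 (16791 nt) were higher in heavy polysomes by 2.30, 2.25 and 1.90 on the log2 scale.

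Across the 14852 genes, 9155 (61.6%) passed an adjusted p of 0.05. Of all genes tested, 4399 (29.6%) were higher and 4756 (32.0%) were lower in heavy than in light polysomes, and the median log2 difference was -0.13 (SD across genes 1.46). Scaling by library size without TMM factors shifted that median by -0.36 and gave 3306 higher and 5956 lower calls. The balance of the directions therefore depends on the scaling. It also depends on the filter. Without genes that passed the filter through 1 pool alone, 4322 were higher and 4109 lower of 13931, with a median of -0.02. The shares of all genes tested that stand beside the lists below include the genes that passed through 1 pool alone. The 2 cultures gave differences of the same sign in 86.4% of genes. The light pools differed more between cultures than the heavy pools: across genes, log2 CPM of the light libraries correlated at r = 0.965, the heavy libraries at r = 0.979, and the light library of culture 2 with the moderate library of culture 1 at r = 0.969. Values are therefore given for each culture for most lists below.

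Coding sequence length, which was known for 12449 of the protein-coding genes tested, ordered the difference. Of 232 genes with a coding sequence under 300 nt, 225 were lower and 1 was higher in heavy polysomes, with a median log2 difference of -2.37. From 300 to 600 nt the calls were 5 higher and 1144 lower of 1306 (median -1.74), and from 600 to 1200 nt 410 higher and 1285 lower of 3528 (median -0.51). The direction turned in the next class. From 1200 to 2400 nt the calls were 2011 higher and 580 lower of 4659 (median 0.57), from 2400 to 4800 nt 1326 higher and 95 lower of 2121 (median 1.15), and at 4800 nt and over 454 higher and 9 lower of 603 (median 1.42). Without genes that passed the filter through 1 pool alone, the order of the classes was the same. From the shortest class up, the calls were then 1 higher and 212 lower of 219, 3 and 1087 of 1237, and 405 and 1223 of 3426. The longer classes gave 2001 and 547 of 4596, 1313 and 87 of 2085, and 449 and 8 of 596. Across genes, Spearman's rho between length and difference was 0.652 (n = 12449 genes, which share 4 libraries), 0.54 in culture 1 and 0.72 in culture 2. With at least 10 counts in all 4 libraries rho was 0.658.

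**Figure D1:**
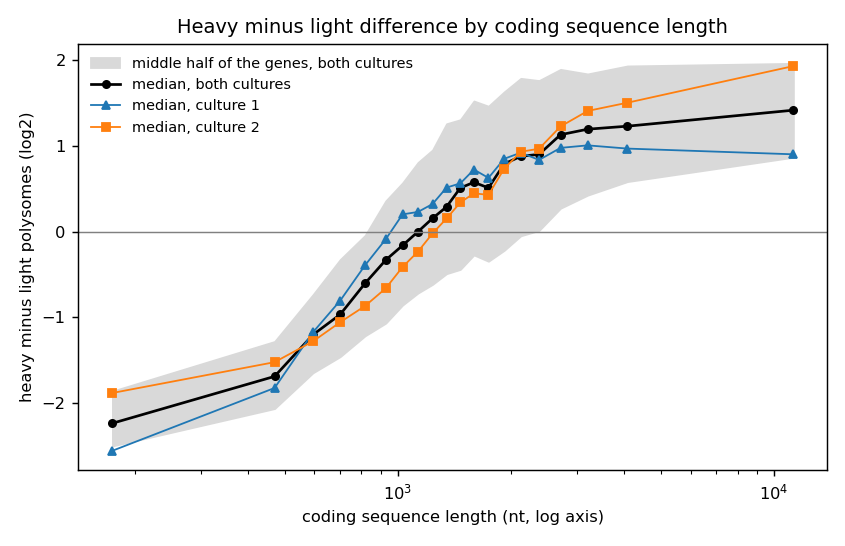
Median log2 difference of heavy minus light polysomes in 20 groups of equal size ordered by coding sequence length (log axis, nt), for both cultures together with the range from the lower to the upper quartile shaded, and for each shNSi culture. The medians run from -2.24 in the shortest group to 1.42 in the longest, and culture 1 levels off near 1 while culture 2 goes on to 1.93.

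The cultures parted at both ends of this order. Among the longest twentieth of the genes the median was 0.90 in culture 1 and 1.93 in culture 2, and among the shortest twentieth -2.56 and -1.89. The group whose median lay nearest to 0 had coding sequences of 1080 to 1185 nt.

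The moderate pool was not part of the comparison. Pools were set against the total RNA of their own culture. For coding sequences under 300 nt, the median log2 difference from total RNA in the light, moderate and heavy pools was 1.15, -0.36 and -1.51 in culture 1 and 0.32, -1.10 and -1.44 in culture 2. Coding sequences of 600 to 1200 nt gave 0.13, 0.48 and -0.09 in culture 1, with the highest median in the moderate pool, and 0.27, 0.24 and -0.27 in culture 2, where light and moderate were close. Coding sequences of 4800 nt and over gave -0.65, -0.84 and 0.32 in culture 1 and -0.88, -0.62 and 1.16 in culture 2. In culture 1 the median of this class was lowest in the moderate pool, so that the pool did not lie between light and heavy there. In both cultures the longest class was above total RNA in the heavy pool alone.

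**Figure D2:**
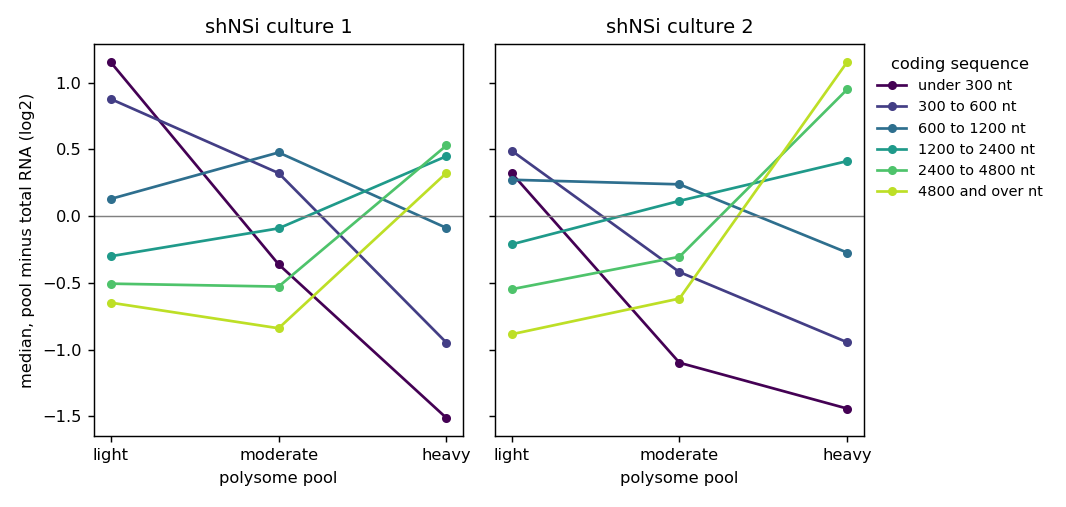
Median log2 difference between each polysome pool (light, moderate, heavy) and total RNA of the same shNSi culture, for 6 classes of coding sequence length. The class under 300 nt falls from light to heavy in both cultures, and the classes over 2400 nt lie below 0 in the light and moderate pools and above 0 in the heavy pool.

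The genes with the most extreme called differences and a mean of at least 10 CPM followed the same division. DCTN1, the large subunit of dynactin, was at 28.1 and 39.6 CPM in the light and 291 and 469.8 CPM in the heavy libraries, a log2 difference of 3.47 ± 0.43 (adjusted p = 2.74e-07). PARP1, which signals DNA breaks, was at 50.9 and 80.3 CPM in the light and 524 and 933 CPM in the heavy libraries (3.45 ± 0.44, adjusted p = 4.18e-07). HSP90AA1, a cytosolic chaperone, was at 463 and 917 CPM in the light and 5816 and 7942 CPM in the heavy libraries (3.38 ± 0.48, adjusted p = 9.77e-07). In all 3 genes the heavy libraries lay well above the light libraries in both cultures. The other genes among the 10 highest were COL6A1 (3.41), COL4A1 (3.40) and COL4A2 (3.35), which encode collagen chains, the splicing regulator HNRNPM (3.41), the intermediate filament gene SYNM (3.38), the cytosolic aconitase and iron regulatory protein gene ACO1 (3.38) and the chromatin remodeler SMARCA1 (3.38). Their coding sequences ran from 2193 to 5139 nt.

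At the other end, C4orf48 was at 37.5 and 24.5 CPM in the light and 2.87 and 3.52 CPM in the heavy libraries, a log2 difference of -3.25 ± 0.37 (adjusted p = 2.22e-07). ROMO1, a small inner membrane protein of mitochondria, was at 299.7 and 137 CPM in the light and 28.5 and 21.1 CPM in the heavy libraries (-3.05 ± 0.40, adjusted p = 4.82e-07). UBL5, a ubiquitin-like protein, was at 488 and 249.7 CPM in the light and 44.9 and 41.3 CPM in the heavy libraries (-3.02 ± 0.43, adjusted p = 8.74e-07). Both light libraries exceeded both heavy libraries in each. RPS29, RPS21 (-2.95), the spliceosomal protein gene SNRPG (-2.996), the respiratory complex I gene NDUFB1 (-2.94), the ATP synthase gene ATP5E (-2.92), NOP10 (-2.90), a component of box H/ACA ribonucleoproteins, and LINC00116 (-2.99), which has an annotated coding sequence despite its name, completed the 10 lowest. Their coding sequences ran from 156 to 417 nt.

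Ribosomal protein mRNAs were among the groups most depleted from heavy polysomes. Of 79 cytosolic ribosomal protein genes, 63 (79.7%) were lower, 3 (3.80%) higher and 13 not called, with a median log2 difference of -2.06. Over all genes tested, 32.0% were lower and 29.6% higher, with a median of -0.13. The list median was -2.17 in culture 1 and -1.94 in culture 2. These mRNAs are short (median coding sequence 456 nt), and their median lay -0.34 from that of other genes of their length, taken as the median of the twentieth of genes that holds each one. RPS18 was at 3986 and 3807 CPM in the light and 610.3 and 660.0 CPM in the heavy libraries (-2.62 ± 0.46, adjusted p = 1.20e-05). RPL8 was at 1835 and 2649.9 CPM in the light and 2056 and 1887 CPM in the heavy libraries (-0.16 ± 0.44, adjusted p = 0.761). RPL4 was at 621 and 986 CPM in the light and 2237 and 1930.2 CPM in the heavy libraries (1.41 ± 0.44, adjusted p = 0.00641). RPL8 did not pass the threshold, and the other 2 moved in opposite directions. Their coding sequences hold 459, 774 and 1284 nt in the order given. The 3 called higher, RPL4, RPL3 (1.16) and RPL5 (1.03), had coding sequences of 1284, 1212 and 894 nt, and within the list Spearman's rho with length was 0.819 (n = 79). RPL3 and RPL5 were named after their values were seen, and many ribosomal protein genes have near-identical pseudogenes that can take part of their reads.

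Most ribosomal protein mRNAs begin with a 5′ terminal oligopyrimidine (TOP) tract, a C followed by pyrimidines, through which translation follows mTOR signalling. Windows of 30 bases around the RefSeq transcription start (GRCh38.p14, from 5 bases before the start) are shown for 6 mRNAs from both ends of the gradient, with the C and the pyrimidines after it in capitals.
RPS21: tgCTTCCTTTCTCTCTCgcgcgcggtgtgg
RPS18: ccgCTCTCTCTTCCacaggaggcctacacg
RPL41: CCTTTCTCTCggccttagcgccattttttt
RPL4: gtggtaagcaCTTCCTTTTCCTgtggcagc
EEF1A1: acgttCTTTTTCgcaacgggtttgccgcca
EIF4B: cgggtCTTTTgcgttctctttccctctccc
The windows lie at chr20:62387098-62387127, plus strand (RPS21), chr6:33272070-33272099, plus strand (RPS18), chr12:56116628-56116657, plus strand (RPL41), chr15:66504831-66504860, minus strand (RPL4), chr6:73521008-73521037, minus strand (EEF1A1), chr12:53006451-53006480, plus strand (EIF4B). The first 3 mRNAs were lower and the last 3 higher in heavy polysomes. A C followed by at least 4 pyrimidines, beginning within 5 bases of the start on the transcribed strand, was found in 54 of 63 ribosomal protein genes with a RefSeq window (85.7%), in 13 of 14 other TOP mRNAs of the list (92.9%) and in 29.8% of 10181 coding genes.

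Of 20 other TOP mRNAs, for translation factors and related proteins, 9 were higher and 3 lower (45.0% higher and 15.0% lower, where 29.6% and 32.0% of all genes tested were), with a median of 0.84 (1.62 in culture 1 and 0.30 in culture 2). EEF1A1, the elongation factor that brings aminoacyl-tRNA to the ribosome, was at 2607 and 3172 CPM in the light and 13177 and 12922 CPM in the heavy libraries (2.18 ± 0.47, adjusted p = 0.000165). VIM, the filament protein vimentin, in whose RefSeq start window no pyrimidine start was found, was at 1067 and 1920.1 CPM in the light and 11043 and 12028 CPM in the heavy libraries (3.01 ± 0.49, adjusted p = 4.21e-06). NACA, a subunit of the nascent polypeptide-associated complex, was at 1584 and 1113 CPM in the light and 404 and 356 CPM in the heavy libraries (-1.81 ± 0.43, adjusted p = 0.000507), and with EEF1B2 (-1.07) and BTF3 (-0.95), named after their values were seen, made up the 3 lower members. These 3 have coding sequences of 489 to 678 nt. Among all coding genes, the 3035 with a pyrimidine start had a median of 0.01 and the 7146 without one 0.18.

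Mitochondrial proteins encoded in the nucleus split by subunit size. Of 78 respiratory chain and ATP synthase genes, 60 (76.9%) were lower and 10 (12.8%) higher in heavy polysomes, where 32.0% and 29.6% of all genes tested were. Their median was -1.95 (-2.11 in culture 1 and -1.89 in culture 2). ATP5A1 and ATP5B encode the alpha and beta subunits of the catalytic head of ATP synthase. ATP5A1 was at 83.2 and 156 CPM in the light and 774 and 1029 CPM in the heavy libraries (2.97 ± 0.44, adjusted p = 1.34e-06), and ATP5B at 227 and 462 CPM in the light and 2243 and 2361 CPM in the heavy libraries (2.83 ± 0.46, adjusted p = 5.08e-06). ATP5E, the epsilon subunit of the same enzyme, was at 959 and 473 CPM in the light and 92.2 and 85.9 CPM in the heavy libraries (-2.92 ± 0.44, adjusted p = 1.84e-06). The mRNAs of 1 complex therefore lay at both ends, with coding sequences of 1662, 1590 and 156 nt. NDUFB1, a small complex I subunit, was at 159 and 95.5 CPM in the light and 17.1 and 15.2 CPM in the heavy libraries (-2.94 ± 0.37, adjusted p = 3.33e-07). Within the list rho with length was 0.868 (n = 78), and its median lay -0.07 from that of genes of the same length.

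The 78 mitochondrial ribosomal protein genes gave 44 (56.4%) lower and 9 (11.5%) higher calls, where 32.0% and 29.6% of all genes tested were. Their median was -1.06 (-0.98 in culture 1 and -1.21 in culture 2). MRPL51 was at 541 and 407 CPM in the light and 84.0 and 83.8 CPM in the heavy libraries (-2.48 ± 0.42, adjusted p = 7.31e-06), MRPL33 at 206 and 119 CPM in the light and 20.7 and 22.3 CPM in the heavy libraries (-2.86 ± 0.38, adjusted p = 5.82e-07) and MRPS9 at 13.0 and 28.3 CPM in the light and 62.8 and 66.2 CPM in the heavy libraries (1.75 ± 0.35, adjusted p = 6.64e-05). MRPS9, with the longest coding sequence of the 3 at 1191 nt, was the one whose heavy libraries were higher. The list median lay 0.25 from that of genes of the same length, on the heavier side, where that of the cytosolic ribosomal proteins lay -0.34, on the lighter side. The difference between the 2 lists was not tested. No mRNA encoded by the mitochondrial genome was analysed here.

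Replication-dependent histone mRNAs, which end in a stem-loop in place of a poly(A) tail, were at the light end. Of 27 genes tested, 26 were lower and 0 higher (median -2.42, -2.46 in culture 1 and -2.12 in culture 2). Of these genes, 15 had at least 10 counts in both light libraries and in neither heavy library, so that the filter itself let them in where they were high, and they support nothing. The others gave 12 lower and 0 higher of 12 (median -2.26). HIST1H2BK was at 83.6 and 27.0 CPM in the light and 12.4 and 8.74 CPM in the heavy libraries (-2.20 ± 0.36, adjusted p = 4.27e-06), and the linker histone gene HIST1H1C at 42.0 and 16.2 CPM in the light and 9.71 and 3.98 CPM in the heavy libraries (-2.07 ± 0.34, adjusted p = 5.51e-06). In both, each light library lay above each heavy library. The list median lay -0.30 from that of genes of the same length. Histone genes are near-identical copies, so reads can be shared between them.

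Of the 13 subunits of eIF3, which recruits the small ribosomal subunit, 7 were higher and 0 lower in heavy polysomes. These are 53.8% higher and 0% lower, where 29.6% and 32.0% of all genes tested were. The list median was 1.59 (1.98 in culture 1 and 1.20 in culture 2). EIF3A, the largest subunit, was at 89.2 and 52.3 CPM in the light and 526 and 857 CPM in the heavy libraries (3.30 ± 0.47, adjusted p = 8.64e-07). EIF3D, the cap-binding subunit, was at 91.5 and 168 CPM in the light and 750.5 and 934 CPM in the heavy libraries (2.76 ± 0.44, adjusted p = 3.06e-06). EIF3K, the smallest, was at 237 and 343 CPM in the light and 192 and 168 CPM in the heavy libraries (-0.67 ± 0.40, adjusted p = 0.144). EIF3B (2.58), EIF3E (2.13), EIF3L (2.18), EIF3I (1.59) and EIF3C (2.98) were also higher, the last at 1.30 to 16.8 CPM and with a near-identical copy in the genome that can take its reads. EIF3F, EIF3G, EIF3H, EIF3J and EIF3M had differences of -0.37, -0.58, 0.82, -0.64 and 0.68, none past the threshold. These calls depend on the processing. EIF3K (-1.03, adjusted p = 0.0329) and EIF3J (-0.997, adjusted p = 0.0264) were called lower by edgeR without TMM factors. Under limma EIF3K (-1.11, adjusted p = 0.0113), EIF3G (-0.998, adjusted p = 0.0177) and EIF3J (-1.03, adjusted p = 0.00971) were called lower. With the moderate pool added to the light pool edgeR called EIF3K lower (-0.88, adjusted p = 0.0341). EIF3H was called higher with all 14 libraries in 1 fit (0.85, adjusted p = 0.0316), and EIF3H and EIF3M with the moderate pool added to the heavy pool. The order of the 13 subunits followed their length (rho 0.934), and the list median lay 1.67 above that of genes of the same length.

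EIF4G2, which encodes DAP5 itself, was at 1539 and 1454 CPM in the light and 1259.7 and 1137 CPM in the heavy libraries, and its log2 difference of -0.32 ± 0.42 (adjusted p = 0.521) did not pass the threshold. Its mRNA was highest in the moderate pools, at 2356 and 1637 CPM, where the light pools had 1525 and 1502 and the heavy pools 1302 and 1287 CPM on the scale of all 8 shNSi libraries. The start codon of DAP5 is not AUG, and no coding length was used for it. Its relatives were higher in heavy polysomes: EIF4G1 was at 260.4 and 304 CPM in the light and 1196 and 2338 CPM in the heavy libraries (2.57 ± 0.45, adjusted p = 1.20e-05), and EIF4G3 gave 2.24 ± 0.39 (adjusted p = 1.17e-05). The mRNA of the cap-binding protein EIF4E was at 114 and 64.6 CPM in the light and 29 and 24.8 CPM in the heavy libraries (-1.68 ± 0.35, adjusted p = 9.89e-05). EIF4EBP1, whose product holds eIF4E back from eIF4G, was at 341 and 155 CPM in the light and 47.2 and 33.6 CPM in the heavy libraries (-2.53 ± 0.40, adjusted p = 2.97e-06). EIF4G1 and EIF4G3 thus lay at the heavy end, and EIF4E and EIF4EBP1 at the light end.

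Of the 15 genes of the eIF4F complex and the eIF4G family, 5 were higher, 5 lower and 5 not called (median -0.17, 0.04 in culture 1 and -0.35 in culture 2). These are 33.3% higher and 33.3% lower, near the 29.6% and 32.0% of all genes tested. EIF4B (2.03), EIF4A3 (1.69) and PABPC4 (1.36) were the other higher members, and EIF4E2 (-1.64), EIF4E3 (-1.38) and EIF4EBP2 (-1.24) the other lower ones. EIF4A2 (0.13), EIF4H (-0.17) and PABPC1 (0.19) were not called. EIF4A1, a helicase gene that other annotated genes overlap, was counted at 0.969 and 1.32 CPM in the light and 0.472 and 0.889 CPM in the heavy libraries and is uncertain. Spearman's coefficient with length was 0.93 over the 14 members with a known length.

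**Figure D3:**
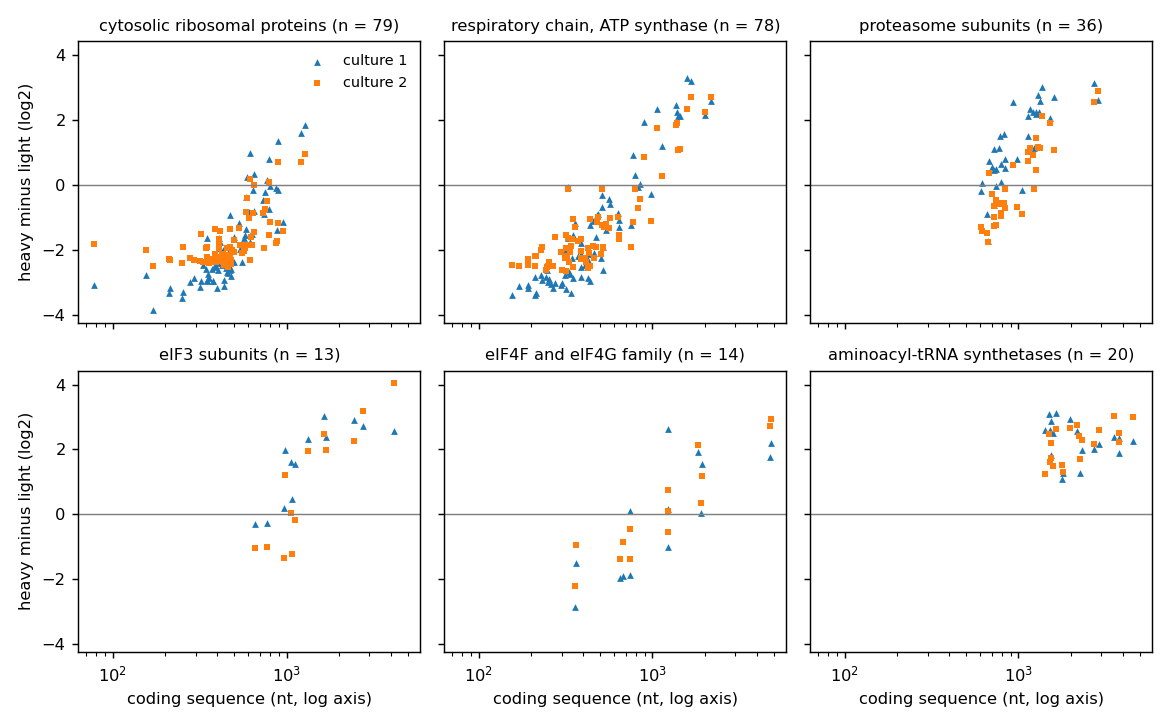
Log2 difference of heavy minus light polysomes against coding sequence length (log axis, nt) for the members of 6 gene lists, a triangle for culture 1 and a square for culture 2 per gene. In the first 5 panels the points climb with length from below 0 to above 0, and the 20 aminoacyl-tRNA synthetases all lie above 0 in both cultures.

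Aminoacyl-tRNA synthetases and glycolysis enzymes were high in heavy polysomes. All 20 cytosolic aminoacyl-tRNA synthetase genes, whose products load tRNAs with their amino acids, were called higher (median 2.26, 2.37 in culture 1 and 2.25 in culture 2), where 29.6% of all genes tested were. TARS was at 163 and 177 CPM in the light and 973 and 1196 CPM in the heavy libraries (2.67 ± 0.44, adjusted p = 4.74e-06), NARS at 32.7 and 47.3 CPM in the light and 288 and 291 CPM in the heavy libraries (2.88 ± 0.41, adjusted p = 9.22e-07) and KARS, the lowest of the list, at 171 and 195 CPM in the light and 412 and 481 CPM in the heavy libraries (1.29 ± 0.40, adjusted p = 0.00639). The heavy libraries were above the light libraries in each. The list median lay 1.40 above that of genes of the same length.

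Of 17 glycolysis genes, 16 (94.1%) were higher and 0 lower, where 29.6% of all genes tested were higher and 32.0% lower. The list median was 2.54 (2.85 in culture 1 and 1.96 in culture 2), 1.91 above genes of the same length. PKM, the pyruvate kinase gene, was at 729 and 1920.2 CPM in the light and 8471 and 9517 CPM in the heavy libraries (2.92 ± 0.49, adjusted p = 7.49e-06). GAPDH was at 1736 and 3846 CPM in the light and 12893 and 11485 CPM in the heavy libraries (2.24 ± 0.49, adjusted p = 0.000209), and HK1, hexokinase 1, at 83.6 and 103 CPM in the light and 721 and 1048 CPM in the heavy libraries (3.23 ± 0.44, adjusted p = 6.81e-07). TPI1, triosephosphate isomerase, was the member not called: it was at 990.4 and 2191 CPM in the light and 991 and 906 CPM in the heavy libraries (-0.64 ± 0.45, adjusted p = 0.213), level in culture 1 and lower in heavy polysomes in culture 2. Its coding sequence was the shortest of the list at 750 nt.

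Of 13 actin and tubulin genes, 12 (92.3%) were higher, where 29.6% of all genes tested were. Their median was 1.91 (2.36 in culture 1 and 1.68 in culture 2), 1.72 above genes of the same length although their coding sequences span only 1128 to 1356 nt. ACTB was at 1949 and 4993 CPM in the light and 10860.5 and 6155 CPM in the heavy libraries (1.39 ± 0.52, adjusted p = 0.0194), and the difference was 2.48 in culture 1 and 0.30 in culture 2. TUBB was at 959 and 2201 CPM in the light and 7997 and 6743 CPM in the heavy libraries (2.34 ± 0.49, adjusted p = 0.000121) and TUBA1A at 22.5 and 25.3 CPM in the light and 219 and 93.5 CPM in the heavy libraries (2.59 ± 0.39, adjusted p = 1.95e-06). TUBB2B, at 4.08 and 2.48 CPM in the light and 2.48 and 2.01 CPM in the heavy libraries, was not called (-0.51 ± 0.42, adjusted p = 0.293). Every other member was higher in heavy polysomes in both cultures.

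Of 37 proteasome genes, 15 were higher and 3 lower (median 0.47; 40.5% higher and 8.11% lower, beside 29.6% and 32.0% of all genes tested), but the median was 1.13 in culture 1 and -0.13 in culture 2. PSMD2, a large subunit of the regulatory particle, was at 195 and 339 CPM in the light and 1712 and 2016 CPM in the heavy libraries (2.85 ± 0.45, adjusted p = 3.21e-06), whereas PSMA7, a subunit of the core, was at 405 and 543 CPM in the light and 393 and 391 CPM in the heavy libraries (-0.26 ± 0.41, adjusted p = 0.59). PSMD9 was lower (-1.73 ± 0.33, adjusted p = 4.03e-05). Spearman's coefficient with length within the list was 0.872 (n = 36). Of 56 genes with the symbols of SR proteins, hnRNPs and SF3 subunits, of which 45 have an annotated coding sequence, 28 were higher and 5 lower (median 1.12, 1.68 in culture 1 and 0.55 in culture 2). These are 50% higher and 8.93% lower, beside 29.6% and 32.0% of all genes tested. The lower members include HNRNPA1P33, a processed pseudogene, named after its values were seen. HNRNPA2B1 was at 284 and 572 CPM in the light and 2295 and 2012 CPM in the heavy libraries (2.41 ± 0.46, adjusted p = 4.10e-05), HNRNPA1 gave 0.86 ± 0.44 (adjusted p = 0.0885), although it was called higher by DESeq2 (0.97, adjusted p = 0.0274) and by edgeR with all 14 libraries in 1 fit (0.88, adjusted p = 0.0235) or with the moderate pool added to the heavy pool (0.97, adjusted p = 0.0102), and SF3B5, a small subunit of the splicing factor SF3b, was at 244 and 163 CPM in the light and 40.2 and 33.0 CPM in the heavy libraries (-2.45 ± 0.38, adjusted p = 2.52e-06).

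Adhesion and matrix genes, which have long coding sequences, were high in heavy polysomes. Of 15 integrin subunit genes tested, 10 (66.7%) were higher and 1 (6.67%) lower, where 29.6% and 32.0% of all genes tested were. Among all genes of 2400 to 4800 nt, 62.5% were higher, and among those of 4800 nt and over 75.3%. The integrin median was 1.85 (1.27 in culture 1 and 2.37 in culture 2), 0.64 above that of genes of the same length. ITGB1, the common beta chain of many integrins, was at 132 and 120.1 CPM in the light and 887 and 1387 CPM in the heavy libraries (3.14 ± 0.45, adjusted p = 1.02e-06). ITGAV was at 7.82 and 10.2 CPM in the light and 73.9 and 107 CPM in the heavy libraries (3.32 ± 0.36, adjusted p = 2.22e-07). ITGAE went the other way, at 57.1 and 31.6 CPM in the light and 5.86 and 8.16 CPM in the heavy libraries (-2.61 ± 0.37, adjusted p = 8.74e-07), although its coding sequence of 3540 nt equals that of ITGA1 (2.22 ± 0.37, adjusted p = 6.35e-06). ITGA2 (1.87), ITGA3 (2.05), ITGA5 (1.85), ITGA6 (2.78), ITGB2 (1.15), ITGB3 (2.03) and ITGB4 (1.82) were higher, and ITGB5 (0.54), ITGA7 (1.19), ITGA10 (-0.63) and ITGB8 (0.35) were not called, the last 3 below 1 CPM. Of the 4 not called, 1 passed the filter through the heavy libraries alone and 1 through the light libraries alone.

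Of 35 laminin and collagen chain genes, 26 (74.3%) were higher and 1 (2.86%) lower, where 29.6% and 32.0% of all genes tested were. Their median was 1.93 (1.32 in culture 1 and 2.52 in culture 2), 0.63 above genes of the same length. Without 1 gene that passed the filter through the heavy libraries alone, 25 of 34 were higher. COL6A1 was at 19.8 and 55.2 CPM in the light and 158 and 781 CPM in the heavy libraries (3.41 ± 0.44, adjusted p = 4.41e-07), and LAMB3, a laminin-332 chain, at 75 and 167 CPM in the light and 263 and 949 CPM in the heavy libraries (2.16 ± 0.42, adjusted p = 5.48e-05). Both genes had more counts in culture 2 than in culture 1 in each pool, and both lay higher in heavy polysomes within each culture. COL9A2 was the lower member (-0.88 ± 0.35, adjusted p = 0.026). The kinesin, myosin and dynein heavy chain motors gave 39 higher and 4 lower of 64, or 60.9% and 6.25%. Their median was 1.46 (1.12 in culture 1 and 1.97 in culture 2), 0.12 above genes of the same length. Without 1 motor gene that passed the filter through the heavy libraries alone, 38 of 63 were higher. MYH9, the non-muscle myosin IIA heavy chain, was at 179.8 and 129 CPM in the light and 891 and 1829 CPM in the heavy libraries (3.06 ± 0.48, adjusted p = 2.43e-06), MYH10 gave 3.19 ± 0.40 (adjusted p = 3.74e-07), and the kinesin KIF9 was lower (-2.13 ± 0.40, adjusted p = 2.86e-05). Receptor tyrosine kinases gave 8 higher and 1 lower of 21 (median 0.73, 0.50 in culture 1 and 0.94 in culture 2), -0.50 from genes of the same length. Their shares, 38.1% higher and 4.76% lower, stand beside 29.6% and 32.0% of all genes tested. EGFR was at 87.3 and 48.9 CPM in the light and 212 and 291 CPM in the heavy libraries (1.93 ± 0.41, adjusted p = 0.00016), AXL was not called (0.81 ± 0.42, adjusted p = 0.0909) and RYK was lower (-1.30 ± 0.34, adjusted p = 0.00129).

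The mRNAs that the study lists as reduced in polysomes after DAP5 silencing were chosen by the study on these samples, and their place in the control cells is not independent of that choice. Of 16, 14 (87.5%) were higher in heavy than in light shNSi polysomes and 0 lower, where 29.6% of all genes tested were higher and 32.0% lower. Their median was 2.10 (1.89 in culture 1 and 2.49 in culture 2), 1.09 above genes of the same length. MMP1, an interstitial collagenase, was at 39.0 and 110.1 CPM in the light and 229 and 684 CPM in the heavy libraries (2.596 ± 0.42, adjusted p = 3.84e-06). CDK12, a kinase of RNA polymerase II, was at 35.6 and 36.7 CPM in the light and 180.2 and 196 CPM in the heavy libraries (2.38 ± 0.38, adjusted p = 2.99e-06). JUN, an AP-1 subunit, was at 168 and 665 CPM in the light and 446 and 396 CPM in the heavy libraries (0.33 ± 0.47, adjusted p = 0.552), with a difference of 1.41 in culture 1 and -0.75 in culture 2. The cultures therefore disagreed in sign on JUN. MYCL, at 1.04 and 0.933 CPM in the light and 0.432 and 0.464 CPM in the heavy libraries, was not called either (-1.13 ± 0.55, adjusted p = 0.0728), but edgeR called it lower without TMM factors (-1.48, adjusted p = 0.0224), with at least 10 counts in all 4 libraries (-1.25, adjusted p = 0.0217), with all 14 libraries in 1 fit (-1.11, adjusted p = 0.0305) and with the moderate pool added to the light pool (-1.20, adjusted p = 0.0228). FLI1 was at 2.37 and 0.193 CPM in the light and 7.27 and 0.657 CPM in the heavy libraries (1.65 ± 0.49, adjusted p = 0.0038), with few counts in culture 2. OSMR (2.35), TP53BP1 (2.46), MMP3 (2.45), LAMC1 (2.15), ETS1 (2.003) and SERPINE2 (1.93) were higher. Of the mRNAs that the study used as controls, LMNA gave 2.81 ± 0.45 (adjusted p = 3.67e-06) and HNRNPD, which encodes AUF1, 1.39 ± 0.46 (adjusted p = 0.00936).

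**Figure D4:**
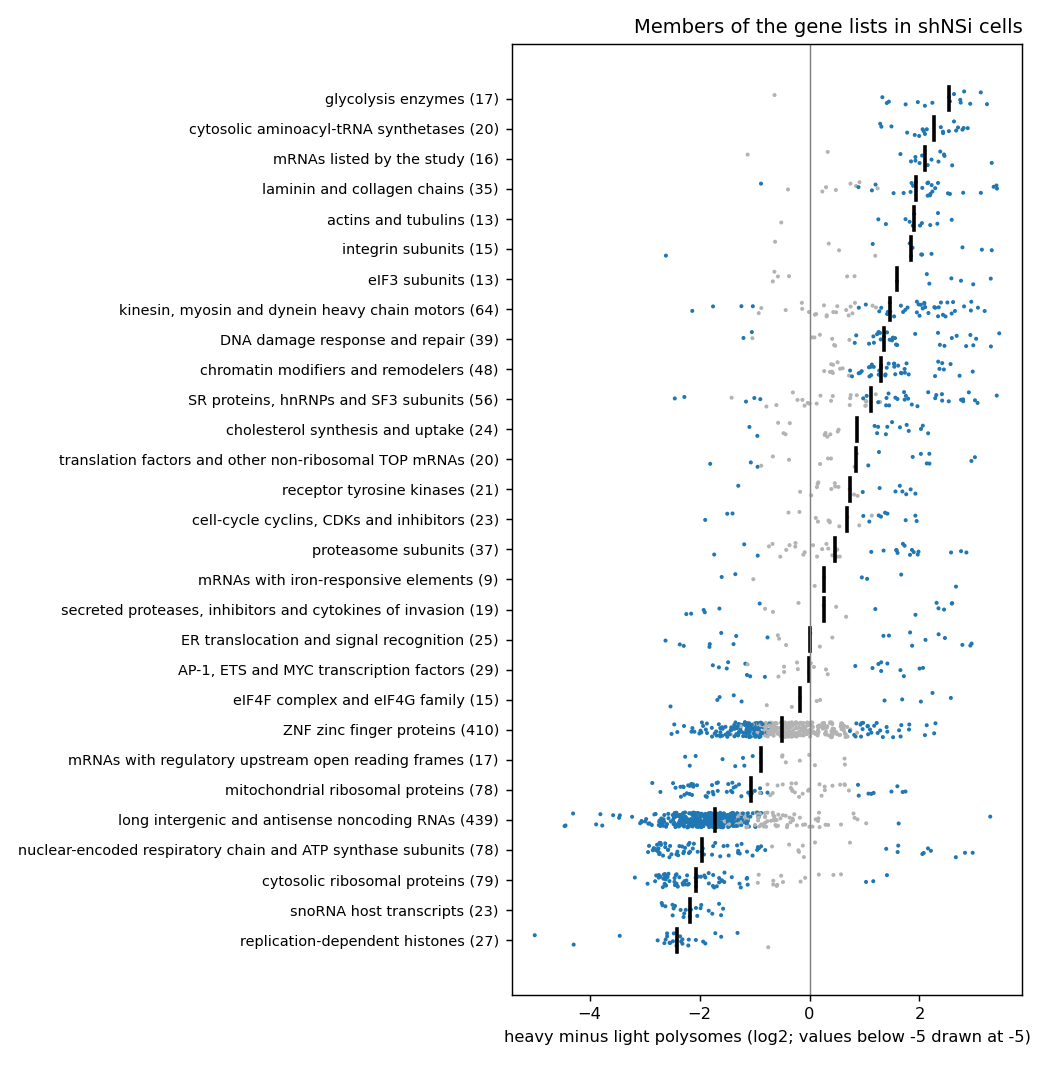
Log2 difference of heavy minus light polysomes for every tested member of 29 gene lists in shNSi cells, 1 point per gene, blue where the adjusted p was under 0.05, with the list median as a bar and the number of genes in brackets. Medians run from -2.42 for replication-dependent histones to 2.54 for glycolysis enzymes.

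Chromatin and DNA damage response genes were mostly at the heavy end, whereas most ZNF genes were not. Of 48 chromatin modifiers and remodelers, 38 (79.2%) were higher and 0 lower, where 29.6% of all genes tested were higher and 32.0% lower. The list median was 1.30 (0.90 in culture 1 and 1.89 in culture 2), 0.03 from genes of the same length. DNMT1, the maintenance DNA methyltransferase, was at 145 and 132 CPM in the light and 576 and 987 CPM in the heavy libraries (2.44 ± 0.44, adjusted p = 1.55e-05), and SMARCA4, a chromatin remodeling ATPase, at 37.7 and 49.8 CPM in the light and 242 and 475 CPM in the heavy libraries (2.97 ± 0.42, adjusted p = 8.74e-07). Of 39 DNA damage response genes, 29 (74.4%) were higher and 2 (5.13%) lower, beside the same shares of all genes tested. Their median was 1.36 (1.02 in culture 1 and 1.68 in culture 2), 0.29 above genes of the same length. XRCC6, a Ku subunit, was at 106 and 215 CPM in the light and 1107 and 1374 CPM in the heavy libraries (3.03 ± 0.45, adjusted p = 1.43e-06), and XPA, a nucleotide excision repair factor, at 17.3 and 18.5 CPM in the light and 7.78 and 7.77 CPM in the heavy libraries (-1.20 ± 0.34, adjusted p = 0.00249). Of 410 ZNF genes, 31 were higher and 125 lower. The share that was lower, 30.5%, was near the 32.0% of all genes tested, and the share that was higher was 7.56%, where 29.6% of all genes were. The list had a median of -0.50 (-0.58 in culture 1 and -0.41 in culture 2), although the median coding sequence of its members was 1713 nt, and the median lay -1.03 from that of genes of the same length. ZNF207 was higher, at 41.9 and 62.8 CPM in the light and 269 and 227 CPM in the heavy libraries (2.27 ± 0.40, adjusted p = 1.35e-05), and ZNF593 lower, at 69.5 and 74.3 CPM in the light and 11.5 and 13.8 CPM in the heavy libraries (-2.51 ± 0.34, adjusted p = 6.81e-07).

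Upstream open reading frames can stop ribosomes before they reach the main coding sequence, and the mRNAs of several regulators of the stress response, and of AMD1, an enzyme of polyamine synthesis, are known for them. The first upstream frame of 12 to 30 bases in the 5′ leader of 4 such mRNAs is shown, with start and stop codons in capitals (GENCODE v29).
ATF4: ATGgcgtatTAG
ATF5: ATGgctctgTAG
AMD1: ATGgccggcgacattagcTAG
PPP1R15B: ATGgtgttgaagcgtcgagccgacTAG
They hold 3 codons before the stop in ATF4 (chr22:39519695-39522685, plus strand) and in ATF5 (chr19:49928702-49933935, plus strand), 6 in AMD1 (chr6:110874770-110895713, plus strand) and 8 in PPP1R15B (chr1:204403387-204411791, minus strand), where the coordinates are those of the gene. Of 17 mRNAs of this kind, 0 were higher and 8 lower in heavy polysomes, and 9 were not called, so that 47.1% were lower where 32.0% of all genes tested were (median -0.88, -0.63 in culture 1 and -0.91 in culture 2), -0.87 from genes of the same length. ATF4, a transcription factor of the integrated stress response, was at 1389 and 863 CPM in the light and 277 and 244 CPM in the heavy libraries (-2.07 ± 0.43, adjusted p = 0.000112). DDIT3, its target CHOP, was at 168 and 84.3 CPM in the light and 25.9 and 23.7 CPM in the heavy libraries (-2.26 ± 0.37, adjusted p = 4.27e-06). PPP1R15A, which directs dephosphorylation of eIF2, was at 937 and 763 CPM in the light and 337 and 409.7 CPM in the heavy libraries (-1.19 ± 0.42, adjusted p = 0.0143). The light libraries were above the heavy libraries in all 3. Their main coding sequences are 1056, 510 and 2025 nt long, and 87.6% of all genes in the length class of DDIT3, 300 to 600 nt, were lower. EIF5 gave 0.64 ± 0.41 (adjusted p = 0.166). The other mRNAs whose frames are shown were named for that and not by their values. ATF5, another transcription factor of the stress response, was at 138 and 93.5 CPM in the light and 39.9 and 49.6 CPM in the heavy libraries (-1.35 ± 0.36, adjusted p = 0.00156), with both heavy libraries below both light libraries. AMD1 was at 169.6 and 118 CPM in the light and 125 and 80.2 CPM in the heavy libraries (-0.50 ± 0.36, adjusted p = 0.232), and PPP1R15B, a relative of PPP1R15A, at 110.0 and 78.0 CPM in the light and 84.3 and 79.8 CPM in the heavy libraries (-0.18 ± 0.35, adjusted p = 0.674), neither past the threshold.

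Over all coding genes, annotated upstream ATG triplets went with a lower difference. The median was 0.27 in 5763 genes with no upstream ATG, 0.09 in 4037 with 1 or 2, -0.02 in 1696 with 3 to 5, and -0.27 in 953 with 6 or more. After the median of genes of the same coding length was taken off, rho across genes was -0.186 for the number of upstream ATG, -0.175 for the GC content of the coding sequence, 0.111 for the length of the 3′ untranslated region and -0.0304 for that of the 5′ leader. These were weak beside the value for coding length. The leaders are those of 1 annotated transcript a gene and need not be the ones these cells use.

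Iron-responsive elements, hairpins that iron regulatory proteins bind, gave 4 higher and 2 lower of 9 mRNAs, or 44.4% higher and 22.2% lower, where 29.6% and 32.0% of all genes tested were. The ferritin mRNAs, which carry the hairpin in the 5′ leader, were light: FTH1 was at 2699 and 4545 CPM in the light and 776 and 1724 CPM in the heavy libraries (-1.60 ± 0.45, adjusted p = 0.00241), and FTL at 3223 and 7593 CPM in the light and 1243 and 3029 CPM in the heavy libraries (-1.35 ± 0.45, adjusted p = 0.00916). TFRC, the transferrin receptor mRNA with hairpins in the 3′ region, was at 117 and 140.5 CPM in the light and 619.9 and 1066 CPM in the heavy libraries (2.66 ± 0.43, adjusted p = 4.51e-06). CDC42BPA (1.67) and CDC14A (0.95) were higher, and EPAS1 (0.26), SLC11A2 (0.09) and SLC40A1 (-1.02) were not called. The ferritin coding sequences are short, at 552 and 528 nt, against 2283 nt in TFRC.

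Of 23 cyclins, CDKs and related genes, 9 were higher and 3 lower (median 0.69, 1.10 in culture 1 and 0.13 in culture 2), or 39.1% higher and 13.0% lower, where 29.6% of all genes tested were higher and 32.0% lower. CCND1, cyclin D1, was at 287 and 495 CPM in the light and 1032 and 983 CPM in the heavy libraries (1.42 ± 0.43, adjusted p = 0.00478), whereas its partner CDK4 was at 749 and 931 CPM in the light and 313 and 279.6 CPM in the heavy libraries (-1.50 ± 0.42, adjusted p = 0.00251) and the inhibitor CDKN1A at 95.6 and 90.6 CPM in the light and 23.0 and 27.1 CPM in the heavy libraries (-1.90 ± 0.35, adjusted p = 1.91e-05). Of 29 AP-1, ETS and MYC family genes, 10 were higher and 8 lower (median -0.01, 0.20 in culture 1 and -0.16 in culture 2). These shares, 34.5% and 27.6%, lay near the 29.6% and 32.0% of all genes tested. GABPA was higher (2.06 ± 0.35, adjusted p = 8.79e-06), and FOSL1, at 877 and 1162 CPM in the light and 471 and 484 CPM in the heavy libraries, was lower (-1.08 ± 0.42, adjusted p = 0.025), as was ELK1 (-1.76 ± 0.39, adjusted p = 0.000227). FOSL1 was not called by edgeR without the filter on low counts (-0.90, adjusted p = 0.0973) or with the moderate pool added to the heavy pool (-0.55, adjusted p = 0.15) or to the light pool (-0.92, adjusted p = 0.0584).

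Of 19 secreted proteases, inhibitors and cytokines, 7 were higher and 6 lower (median 0.26, 0.73 in culture 1 and -0.49 in culture 2), shares of 36.8% and 31.6% that again lay near those of all genes tested. CXCL2, a chemokine, was at 7.52 and 24.4 CPM in the light and 1.18 and 6.53 CPM in the heavy libraries (-2.24 ± 0.37, adjusted p = 6.26e-06). The 6 lower members, which besides CXCL2 were CXCL1, CXCL8, CSF2, IL6 and LIF (named after their values were seen), are cytokines with coding sequences of 300 to 639 nt. Of 25 genes for translocation into the endoplasmic reticulum, 10 were higher and 9 lower (median 0.02, 0.36 in culture 1 and -0.33 in culture 2), or 40.0% higher and 36.0% lower, near the shares over all genes tested. CALR, the chaperone calreticulin, was at 133 and 292 CPM in the light and 945 and 1949 CPM in the heavy libraries (2.78 ± 0.44, adjusted p = 3.36e-06), and SEC61B, a small subunit of the translocon, at 385 and 192 CPM in the light and 40.4 and 48.4 CPM in the heavy libraries (-2.62 ± 0.42, adjusted p = 4.26e-06). Of 24 genes of cholesterol synthesis and uptake, 12 were higher and 2 lower (median 0.86, 1.04 in culture 1 and 0.37 in culture 2). These are 50% higher and 8.33% lower, where 29.6% and 32.0% of all genes tested were. LSS, lanosterol synthase, was higher (2.16 ± 0.39, adjusted p = 1.94e-05), and FDPS, farnesyl diphosphate synthase, was not called (0.32 ± 0.45, adjusted p = 0.539), with 1.24 in culture 1 and -0.59 in culture 2.

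Transcripts without an annotated coding sequence were mostly at the light end of the gradient. Of 238 lincRNA genes, 182 were lower and 3 higher (median -1.76), and of 245 antisense genes 192 were lower and 1 higher (median -1.74), whereas 12483 protein-coding genes gave 3347 lower and 4214 higher. All 23 host transcripts of small nucleolar RNAs were lower (median -2.18, -2.85 in culture 1 and -1.63 in culture 2). GAS5 was at 589 and 361 CPM in the light and 65.2 and 78.5 CPM in the heavy libraries (-2.69 ± 0.43, adjusted p = 3.83e-06), and ZFAS1 at 379.6 and 192 CPM in the light and 34.1 and 52.3 CPM in the heavy libraries (-2.68 ± 0.44, adjusted p = 4.74e-06). Both are known to hold only short reading frames. The list of symbols made of LINC and a number, or ending in AS and a number, with MALAT1 and NEAT1, gave 349 lower and 2 higher of 439, of which 11 do have an annotated coding sequence. LINC01963, at 1.84 and 1.16 CPM in the light and 9.79 and 21.3 CPM in the heavy libraries, was higher (3.29 ± 0.43, adjusted p = 4.42e-07). Processed pseudogenes gave 140 lower and 59 higher of 323. Many of these genes passed the count filter through the light libraries alone and so had to be low in heavy polysomes: 49 lincRNA genes, 65 antisense genes, 100 of the LINC and AS list and 68 processed pseudogenes, but 0 of the host transcripts. Without these and the few that passed through the heavy libraries alone, the counts were 141 lower and 2 higher of 188 lincRNA genes, 141 lower and 1 higher of 179 antisense genes, 269 lower and 2 higher of 339 in the LINC and AS list and 82 lower and 47 higher of 242 processed pseudogenes. Pseudogene reads can come from the parent genes.

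**Figure D5:**
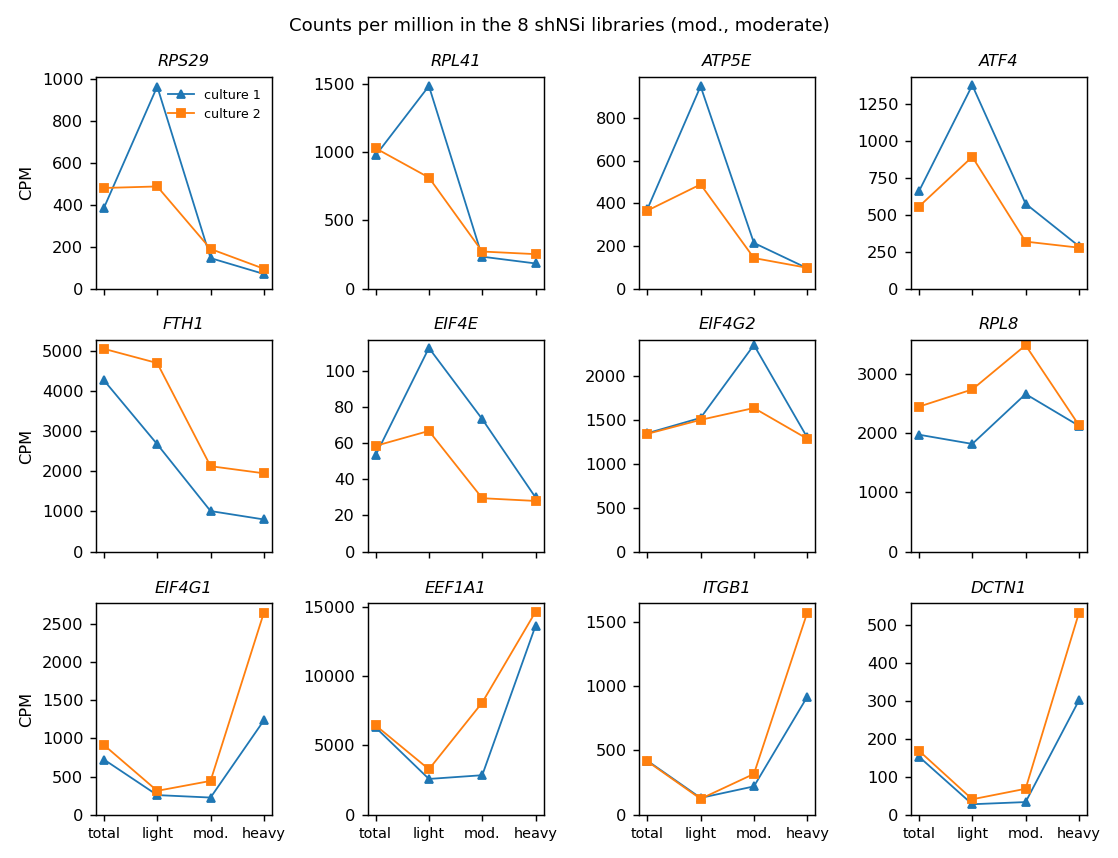
CPM of 12 genes in total RNA and in the light, moderate and heavy polysome pools of shNSi culture 1 (triangles) and culture 2 (squares), linear axes from 0. RPS29 and ATP5E are highest in the light pool in both cultures, EIF4G2 and RPL8 in the moderate pool, and EIF4G1, EEF1A1, ITGB1 and DCTN1 in the heavy pool.

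Some of these calls rested on 1 culture. With 1 shNSi culture left, the spread between cultures came from the shDAP5 libraries alone, and the lone shNSi culture is assumed to vary like them. Without the libraries of culture 1, edgeR no longer called RPL4 (1.01, adjusted p = 0.058), EIF4E3 (-0.82, adjusted p = 0.119), ACTB (0.34, adjusted p = 0.521), FLI1 (1.79, adjusted p = 0.0754) or HNRNPD (0.48, adjusted p = 0.212). Without those of culture 2, it no longer called MDN1 (1.06, adjusted p = 0.0524), ITGA2 (0.93, adjusted p = 0.0763) or COL9A2 (-0.56, adjusted p = 0.194). Other genes were not called over both cultures but passed when 1 was left out. EIF3F (-1.18, adjusted p = 0.00993), EIF3G (-1.29, adjusted p = 0.00603), EIF3J (-0.96, adjusted p = 0.0167), EIF3K (-0.99, adjusted p = 0.0288) and TPI1 (-1.23, adjusted p = 0.0159) were lower and AXL (0.98, adjusted p = 0.0249) was higher without culture 1. EIF3H (1.60, adjusted p = 0.00241), EIF3M (1.55, adjusted p = 0.00132), EIF5 (0.91, adjusted p = 0.0163), HNRNPA1 (1.45, adjusted p = 0.00441), FDPS (1.24, adjusted p = 0.00587) and JUN (1.41, adjusted p = 0.00176) were higher without culture 2. Calls were also gained under other settings: AXL (0.92, adjusted p = 0.021) and MTRNR2L12 (1.66, adjusted p = 0.0178) higher under DESeq2, and EIF5 (0.66, adjusted p = 0.0348), ITGB5 (0.56, adjusted p = 0.0318) and AXL (0.83, adjusted p = 0.0161) higher with all 14 libraries in 1 fit. SLC40A1 was called lower with all 14 libraries, without TMM factors, with at least 10 counts in all 4 libraries and with the moderate pool added to the heavy pool. ITGA7, a gene below 1 CPM, was called higher under limma and with the moderate pool added to the light pool. MTRNR2L12 was higher also under limma, without the filter on low counts, with at least 10 counts in all 4 libraries and with the moderate pool added to either pool. Under limma on quantile-normalized values, EEF1A1, GAPDH, KARS, TUBB, ACTB, ACTG1, FTL, RPL4 and COL9A2 lost their calls, and with the moderate pool added to the light pool so did GAPDH, ACTB, ACTG1, FTH1, FTL, PPP1R15A, CCND1, FOSL1, EIF3I, RPL4, HNRNPD and EIF4E3. Without TMM factors, CDC14A (0.59, adjusted p = 0.138), ACTB (1.03, adjusted p = 0.106), HNRNPD (1.04, adjusted p = 0.07) and ITGB2 (0.79, adjusted p = 0.0539) were not called. Without the filter on low counts, PPP1R15A, COL9A2 and FOSL1 were not called, and under DESeq2 COL9A2 was not. Without the culture term, FTL, CDC14A, COL9A2, ACTB, CXCL2 and FLI1 were not called. With the moderate pool added to the heavy pool, XPA, CDK4, FOSL1 and COL9A2 were not called. The direction of each of these was kept.

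The heavy to light difference was then set against that of the shDAP5 cells, to show where the control cells differed. EIF4G2, the gene that shDAP5 targets, was at 1536 and 1546 CPM in light and 1375 and 1366 CPM in heavy polysomes of shNSi, and at 558 and 667 CPM in light and 688 and 689.9 CPM in heavy polysomes of shDAP5, so that every shDAP5 library lay below every shNSi library. Over the 8 libraries, 15989 genes were tested for the difference of the differences, and 1356 (8.48%) were called: 271 (1.69%) had a higher and 1085 (6.79%) a lower heavy to light difference in shDAP5. Across genes, the SD of the heavy to light difference was 1.51 in shNSi and 1.06 in shDAP5. The calls followed length. For coding sequences under 300 nt the median difference of heavy minus light was -2.21 in shNSi and -1.51 in shDAP5, with 13 higher and 0 lower calls in shDAP5. For 4800 nt and over it was 1.57 in shNSi and 0.27 in shDAP5, with 0 higher and 194 lower calls. The medians thus spread further with length in the control cells. With the replicate number as a block shared by both lines, in place of a term for each culture, 840 genes were called. With neither, edgeR called 0 genes (3423 at an unadjusted p under 0.05). Without TMM factors 992 were higher and 642 lower in shDAP5, so the balance of directions depends on the scaling. Leaving out shNSi culture 1 gave 2964 calls and leaving out shNSi culture 2 gave 752, where the spread again came from the shDAP5 cultures alone.

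TOP2A, DNA topoisomerase II alpha, was at 183 and 199 CPM in light and 751 and 1909.5 CPM in heavy polysomes of shNSi, and 291 and 299 against 315 and 229.9 CPM in shDAP5, a difference of -2.78 ± 0.54 (adjusted p = 0.00863). THOC2, a subunit of the mRNA export complex THO, gave -2.70 ± 0.47 (adjusted p = 0.00863), and UBA6, a ubiquitin-activating enzyme, -2.66 ± 0.44 (adjusted p = 0.00863). In these 3 the difference of heavy minus light was 2.65, 2.06 and 2.56 in shNSi and -0.13, -0.64 and -0.11 in shDAP5. NCBP2-AS2 was at 37.2 and 34.7 CPM in light and 10.4 and 9.42 CPM in heavy polysomes of shNSi, and 31.5 and 21.3 against 25.6 and 41.5 CPM in shDAP5, a difference of 2.19 ± 0.44 (adjusted p = 0.00863). MESP1 gave 2.08 ± 0.45 (adjusted p = 0.0101) and C19orf70 2.07 ± 0.45 (adjusted p = 0.0101). The light libraries of shDAP5 carry the code that marks moderate libraries in shNSi, but their log2 CPM correlated with the shNSi light libraries at r = 0.959 to 0.979 and with the shNSi moderate libraries at 0.892 to 0.941. Whether the pools were cut at the same place in both lines was not tested. Of the lists, the integrins gave 7 lower and 0 higher of 15 in shDAP5, the laminin and collagen chains 14 and 0 of 35, the respiratory chain genes 1 and 24 of 78, and the actins and tubulins 0 and 0 of 13. Over all genes 6.79% were lower and 1.69% higher. Genes of 2400 to 4800 nt gave 595 lower and 0 higher of 2121, those of 4800 nt and over 194 and 0 of 603, and those of 300 to 600 nt 0 and 145 of 1306. Whether any list differs from genes of its length was not tested.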

How the data were processed

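Polysome fractions and total RNA of MDA-MB-231 cells were sequenced. The authors aligned reads with STAR 2.6.0a to hg19 and deposited whole-number counts per gene symbol, per the labels. The name of the deposited table points to featureCounts as the counting tool, and its version, settings and annotation are not given in the sources used here. The counts were used as deposited. Groups were taken from the sample titles, and the 2 cultures of a line come from 2 independent studies. The fractions of a culture come from that culture, and across genes the deviations of its heavy and light libraries from their group means correlated at r = 0.236, so culture entered the fit. Reads of overlapping genes and near-identical copies may be shared.

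Genes with at least 10 counts in 2 or more of 4 libraries were tested with edgeR 4.0.16 (R 4.3.3, TMM factors, robust quasi-likelihood test, Benjamini-Hochberg adjusted p threshold of 0.05), with 1 residual degree of freedom a gene. With so few, the spread in each test came largely from estimates shared across genes. The p-values and standard errors therefore do not measure the spread between the 2 cultures of that gene alone. The comparison with shDAP5 used an interaction over 8 libraries with a term for each culture. Alternatives were DESeq2 1.42.0, limma 3.58.1 on log2(CPM + 1), other filters, scalings and samples, and the moderate pool added to either end. The fits were tested on simulated data, where both made more false calls than the threshold sets and recovered most of the larger but few of the smaller changes, so a gene that was not called may still differ. The 14 libraries held 25899838 to 30795910 counts. Symbols were matched to GENCODE v29 (GRCh38) by name (37583 of 58434) or by an older symbol (661), and 1 coding transcript a gene was used, the best ranked and then the longest. Start windows came from RefSeq (GRCh38.p14).

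Members and gene lists were chosen with earlier results of these data known. Genes were named by rule: the 10 highest and 10 lowest called differences with a mean of at least 10 CPM and the same sign in both cultures, of each list the 2 members with the highest mean and those with the lowest and highest difference at a mean of at least 1 CPM (all members of lists of 16 or fewer), EIF4G2, the mRNAs the study lists, ACTB, GAPDH, LMNA and HNRNPD, the 5 shortest and 5 longest coding sequences with a mean of at least 10 CPM, the 3 lowest and 3 highest interactions and the markers. Others are said to have been named after their values were seen. A few genes that the rule names are not reported here.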

Additional observations from a re-analysis of the deposited data

Results flagged for a closer look

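The heavy to light difference differed between shDAP5 and shNSi in 1356 of 15989 genes by a test of the difference itself (edgeR quasi-likelihood interaction, Benjamini-Hochberg adjusted p under 0.05). The genes with the most extreme values and a mean of at least 10 CPM were TOP2A (-2.78 ± 0.54), THOC2 (-2.70 ± 0.47) and UBA6 (-2.66 ± 0.44), whose difference was lower in shDAP5, and C19orf70 (2.07 ± 0.45), MESP1 (2.08 ± 0.45) and NCBP2-AS2 (2.19 ± 0.44), whose difference was higher there. The first 3 have coding sequences of 4596, 4782 and 3159 nt, and the last 3 of 357, 807 and 300 nt. With 2 cultures a line no group was large enough to test for a sample far from the others.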

How the results depend on the processing

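The 2 cultures, with 1 residual degree of freedom a gene, and the light pools, which differed more than the heavy pools, limit what is given here. Counts of genes called between heavy and light polysomes stayed within 1.5 times in each alternative run, from 7823 (no replicate block) to 10455 (all 14 libraries), against 9155. The test of shDAP5 against shNSi moved more, from 1356 calls (271 higher, 1085 lower in shDAP5). All 14 libraries in 1 fit gave 2787 (757 and 2030), the replicate block across lines 840 (133 and 707), and no replicate block and no term for each culture gave 0 (0 and 0) with edgeR, with 3423 at an unadjusted p under 0.05, while DESeq2 with the culture terms called 1922, of them 506 higher. Counts higher and lower were 992 and 642 without TMM factors, and 445 were higher with at least 10 counts in all 8 libraries. The shNSi moderate pool in place of the light pool, an alternative chosen after seeing the data, gave 3745 (1893 and 1852). Leaving out 1 shNSi culture gave 752 to 2964 calls, 337 to 1003 higher and 415 to 1961 lower. The cause was not tested for any of these.

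Signs turned for some list medians and genes, none of them past the threshold under these alternatives: without the filter on low counts, 0.005 for the eIF4F list, 0.1676 for the transcription factor list, 0.0145 for RPL8 and 0.005 for EIF4H. With the moderate pool added to heavy, 0.0857 for the eIF4F list, 0.1885 for RPL8, 0.0642 for EIF3K, 0.2308 for EIF3F, 0.0512 for EIF3G, 0.0857 for EIF4G2, -0.0872 for PABPC1, 0.2204 for EIF4H, 0.407 for PSMA7, 0.1933 for TPI1, -0.0089 for ESR1 and 0.1976 for EPCAM. Without TMM factors, -0.0935 for the iron-responsive list, -0.3422 for the secretory list, -0.1 for the invasion list, -0.1655 for PABPC1, -0.2272 for EIF4A2, -0.0935 for EPAS1, -0.2646 for SLC11A2, -0.0049 for ITGB8, -0.0912 for SETD1B, -0.0335 for FDPS, -0.0268 for JUN and -0.2015 for ESR1. With limma on log2(CPM + 1), -0.0967 for the iron-responsive list, -0.3967 for the secretory list, -0.157 for the invasion list, -0.1795 for EIF4A2, -0.1264 for EPAS1, -0.0967 for SLC11A2, 0.0542 for ITGA10, -0.0693 for NSD2, -0.1291 for FDPS, -0.0992 for JUN and 0.1304 for EPCAM. With the moderate pool added to light, -0.1938 for the proteasome list, -0.167 for the secretory list, -0.0774 for the invasion list, -0.0448 for EIF4A2 and -0.0945 for FDPS. With at least 10 counts in all 4 libraries, -0.1068 for the secretory list and -0.0293 for SLC11A2. Without the culture term, -0.0087 for the secretory list. With DESeq2, 0.0969 for the transcription factor list. With all 14 libraries in 1 fit, 0.0079 for the transcription factor list. Leaving out 1 culture gave, among values that turned, -0.3146 to 0.0383 for the eIF4F list, -0.0951 to 1.1241 for the proteasome list, -0.2862 to 0.3541 for the secretory list, -0.4462 to 0.7312 for the invasion list, -0.1207 to 0.2001 for the transcription factor list, -0.4501 to 0.1602 for RPL8, -1.1766 to 0.4668 for EIF3F, -1.2945 to 0.1805 for EIF3G, -0.1486 to 1.5535 for EIF3M, -0.4165 to 0.1074 for EIF4H, -0.5535 to 1.2382 for FDPS, -0.7059 to 1.4055 for JUN, -0.275 to 3.4476 for MTRNR2L12, -0.0688 to 0.6113 for ESR1 and -0.7129 to 0.3271 for EPCAM. The far end of the range passed the threshold for EIF3F, EIF3G, EIF3M, FDPS, JUN and MTRNR2L12. Of the named genes' alternatives, 2028 kept direction and side of the threshold, 67 lost and 56 gained a call and 43 turned. List medians moved less than the spread of the cultures in 249, further in 49, and turned in 21. The smallest exact permutation p over 2 cultures is 0.333, so no such test was used.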

Other observations

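A few genes stood against the order by coding sequence length or by coding potential. They were chosen after their values were seen and are given with no explanation. IGIP was the only gene of the class under 300 nt called higher in heavy polysomes, at 2.64 and 1.96 CPM in the light and 4.36 and 7.81 CPM in the heavy libraries, a log2 difference of 1.36 ± 0.42. In the class of 300 to 600 nt, PSPN, a neurotrophic factor gene, was at 2.37 and 3.76 CPM in the light and 10.1 and 16.9 CPM in the heavy libraries, a log2 difference of 2.13 ± 0.37, and INAFM1 was at 3.68 and 2.22 CPM in the light and 4.68 and 7.04 CPM in the heavy libraries, a log2 difference of 1.00 ± 0.41. AHNAK, at 276 and 85.0 CPM in the light and 784 and 987 CPM in the heavy libraries, a log2 difference of 2.52 ± 0.48, fell into that class because the transcript chosen for it holds 450 nt, whereas the gene is known for a very long protein, so its length here is not that of its main product.

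Of the 603 genes with coding sequences of 4800 nt and over, 9 were lower in heavy polysomes, of which PKD1L1 reached 10 counts in the light libraries alone and is left out. CAMTA1, a transcription activator gene, was at 70.0 and 34.7 CPM in the light and 10 and 11.1 CPM in the heavy libraries, a log2 difference of -2.23 ± 0.36. F8, coagulation factor VIII, was at 15.3 and 13.1 CPM in the light and 4.72 and 3.71 CPM in the heavy libraries, a log2 difference of -1.76 ± 0.36. FAT3, an atypical cadherin gene with a coding sequence of 13674 nt, was at 26.8 and 10.3 CPM in the light and 10.6 and 5.95 CPM in the heavy libraries, a log2 difference of -1.07 ± 0.34. In these 3 the light library of each culture lay above its heavy library. PCNX2, MYO5B, FOCAD, LRRC37A2 and VCAN were the others, with log2 differences from -0.91 to -1.86. Among lincRNA and antisense genes, LINC01963 (3.29), LINC02035 (1.62) and PINK1-AS (1.47) were called higher in heavy polysomes. So was ERICD (1.57), at a mean of 0.43 CPM, but it passed the count filter through the heavy libraries alone. An antisense gene such as PINK1-AS can share reads with the gene it overlaps.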
